A study of Mus musculus with 9 samples.

Results

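The genes described here are the 7 mouse genes for the protein inhibitors of cyclin-dependent kinases (CDKs), taken by name from a table of read counts over 49315 Ensembl gene identifiers that were paired with GENCODE M21 symbols. The INK4 family has 4 genes, Cdkn2a, Cdkn2b, Cdkn2c and Cdkn2d, and the CIP/KIP family has 3, Cdkn1a, Cdkn1b and Cdkn1c. RNA was sequenced in 9 libraries of pancreatic stellate cells, the matrix-producing fibroblast-like cells of the pancreas, from the C57BL6 strain. The line arose by spontaneous outgrowth and was used as a polyclonal population after lentiviral delivery of Cas9 with a guide RNA and puromycin selection, so edited and unedited cells can be mixed in a library. R26 normoxia (3 libraries) carried the control guide R26 sg1 and was kept at 20% oxygen for 48 h. R26 hypoxia (3 libraries) carried that same guide and was kept at 0.5% oxygen for 48 h. HIF1a-ko hypoxia (3 libraries) carried a guide against Hif1a, the gene of the HIF-1 subunit that is destroyed when oxygen is present, at 0.5% oxygen for 48 h. The Hif1a guide at 20% oxygen was not analysed here, and the guide was compared only in low oxygen. Only this guide against Hif1a was read. Guide and cell population change together, so loss of Hif1a cannot be told apart from other differences between the populations. Whether the libraries of a group were grown as separate cultures is not in the labels. The p-values therefore set a group difference against the variation between these libraries, and that variation may be technical.

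CDKs drive the cell through its division cycle when bound to cyclins. INK4 proteins bind Cdk4 and Cdk6 and keep them from D-type cyclins, while CIP/KIP proteins bind whole cyclin-CDK complexes and act mainly on those with Cdk2. Both families hold back phosphorylation of the retinoblastoma protein, which restrains the E2F factors that switch on S phase genes. Cultured rodent cells that escape senescence often do so by losing the Cdkn2a locus or p53, so whether an immortal line still makes these transcripts is of interest.

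Library totals were between 43837809 and 107840223 counts. The deepest library of each group had at least 88451200, and these were HIF1a-ko hypoxia 1, R26 hypoxia 3 and R26 normoxia 3. These deeper libraries also differed in transcripts of other cell types. Krt18, an epithelial keratin, was at 0 in all 3 of them and averaged 5.52 CPM (counts scaled to a common library size, with TMM factors) in the 6 shallower ones, and Adipoq, made by fat cells, averaged 0.00375 against 9.13 CPM. Another epithelial keratin, Krt19, still averaged 21.3 CPM in the deeper libraries, against 35.2 CPM in the shallower ones. The 14 stellate cell and fibroblast markers summed to 17200 to 18900 CPM in R26 normoxia, 19400 to 21000 CPM in R26 hypoxia and 13100 to 13500 CPM in HIF1a-ko hypoxia, with 9 or 10 of them at 1 CPM or more in every library of a group. Lrat, the retinoid-storing enzyme that defines quiescent stellate cells, was at 0 in R26 normoxia and HIF1a-ko hypoxia and averaged 0.00725 CPM in R26 hypoxia. The 6 epithelial markers summed to 14.1 to 70.2, 42.5 to 104 and 12.9 to 60.6 CPM in these groups in that order, the 8 leukocyte markers to 14.7 to 64.2, 10.3 to 85.3 and 19 to 86.3 CPM, and the 3 fat cell markers to 0.045 to 31.9, 0.0378 to 37.9 and 0.0728 to 22.2 CPM. The 5 endothelial markers summed to 6.19 to 11.6, 4.54 to 11.5 and 5.41 to 14.3 CPM. The 9 acinar and islet markers summed to 10.7 to 15.1, 10.7 to 13.1 and 4.42 to 7.1 CPM, with Amy2a2, Ins1 and Ins2 at 0 in every library. The fibroblast sums and the acinar and islet sums of HIF1a-ko hypoxia lay below those of the R26 groups. The fibroblast sums of R26 normoxia also lay below those of R26 hypoxia. The other ranges overlapped between groups, and the part of all these markers in the results below was not tested. In bulk RNA, fewer cells with a transcript and less of it per cell cannot be told apart.

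The targeted gene was read first. In R26 normoxia the Hif1a values were 194, 192 and 225 CPM. They were 178, 169 and 207 CPM under R26 hypoxia, and 123, 117 and 125 CPM with the Hif1a guide. Each HIF1a-ko library was below every R26 library, and the log2 fold change to R26 hypoxia was -0.60 ± 0.09 (SE; edgeR quasi-likelihood test, Benjamini-Hochberg adjusted p = 0.000358). An edited transcript can still be counted, so this is a weak check of the label. Pdk1, a kinase of mitochondrial pyruvate use and a well-known HIF-1 target, ran from 43.4 to 46.3 CPM in R26 normoxia, from 293 to 307 CPM in R26 hypoxia and from 28.5 to 31 CPM in HIF1a-ko hypoxia.

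All 7 inhibitors were expressed, meaning at least 1 CPM in all 3 libraries of some group. At a stricter level of 5 CPM, 6 of 7 remained in that count, and Cdkn1c, for p57Kip2, was the exception. Cdkn1c ran from 39 to 158 reads per library, while the lowest count of any other inhibitor in any library was 450. It was below 1 CPM in all 3 HIF1a-ko libraries. The transcripts of the Cdkn2a and Cdkn2b locus were therefore present in this spontaneously immortal line.

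The genes lie as follows in GRCm38 (GENCODE M21). Cdkn2a (chr4:89274471-89294653, minus strand) and Cdkn2b (chr4:89306299-89311039, minus strand) are neighbours on chromosome 4, and Cdkn2c lies further along it (chr4:109660876-109667189, minus strand). Cdkn2d is on chromosome 9 (chr9:21288410-21291407, minus strand). Cdkn1a is on chromosome 17 (chr17:29090976-29100727, plus strand), Cdkn1b on chromosome 6 (chr6:134920401-134925513, plus strand) and Cdkn1c on chromosome 7 (chr7:143458339-143461050, minus strand). Cdkn2a makes 2 transcripts from separate start sites that encode unrelated proteins, p16Ink4a, which binds Cdk4 and Cdk6, and p19Arf, which binds Mdm2 and so stabilizes p53. Of their bases, 575 are common, 277 belong to the p16Ink4a transcript and 320 to the p19Arf transcript. Because counts are per gene, the values of Cdkn2a cannot be split between them. Some 24.9% of the 50-base stretches of Cdkn1c also occur in Gm44732, a predicted gene on the opposite strand that overlaps 625 bases of its exons and held 0 to 4 reads per library. For Cdkn1a, 8.49% of such stretches recur elsewhere in the transcriptome, and 273 exon bases overlap AC167363.2 on the opposite strand. No gene of that name was among those counted. Since the strand setting of the counting is not given in the sources used here, the values of Cdkn1c and, to a lesser extent, Cdkn1a are uncertain by what these overlaps could add or remove.

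Start regions are shown for Cdkn2a and Cdkn1b, and short pieces of a start region for Cdkn2c. RefSeq windows of 250 bases before the start (GRCm38.p6) were found for 6 of 7 genes, all but Cdkn1c. Windows were searched on both strands for the core of the hypoxia response element, ACGTG, and for the E2F letters TTTCCCGC, TTTGGCGC, TTTCGCGC and TTTGCCGC. Bases that are exon in GENCODE M21 are not printed. The windows of Cdkn1a, Cdkn2b and Cdkn2d held neither motif and are not printed either. Cdkn2a is given first because its 2 starts differ: the p19Arf window (chr4:89294654-89294869, minus strand) held an E2F match, in capitals, and the p16Ink4a window (chr4:89282193-89282442, minus strand) held neither motif.
Cdkn2a p19Arf start: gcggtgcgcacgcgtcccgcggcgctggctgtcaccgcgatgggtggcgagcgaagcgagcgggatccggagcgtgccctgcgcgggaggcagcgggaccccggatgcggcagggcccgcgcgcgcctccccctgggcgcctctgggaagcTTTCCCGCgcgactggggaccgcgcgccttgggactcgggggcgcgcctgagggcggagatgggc
Cdkn2a p16Ink4a start: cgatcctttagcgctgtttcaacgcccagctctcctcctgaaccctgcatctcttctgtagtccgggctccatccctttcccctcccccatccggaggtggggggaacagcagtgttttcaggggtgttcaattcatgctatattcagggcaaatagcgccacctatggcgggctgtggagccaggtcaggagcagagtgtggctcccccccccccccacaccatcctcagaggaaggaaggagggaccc
The window of Cdkn1b (chr6:134920151-134920400, plus strand) held neither motif.
Cdkn1b start: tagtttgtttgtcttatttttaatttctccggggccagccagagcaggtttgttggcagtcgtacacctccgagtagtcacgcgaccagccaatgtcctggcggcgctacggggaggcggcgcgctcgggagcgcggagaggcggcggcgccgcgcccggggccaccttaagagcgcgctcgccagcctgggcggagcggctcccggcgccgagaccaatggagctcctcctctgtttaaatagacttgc
Cdkn2c, for p18Ink4c, was the only one of the 6 with ACGTG in a window. The window of its upstream start had none, and all 250 bases of that window are exon. The window of its downstream start held 2 matches, 100 and 123 bases before the start, and 13 of its 250 bases, at the far end, are exon. The pieces with the matches hold 0 exon bases and lie at chr4:109665456-109665484 and chr4:109665479-109665507 (minus strand), with the match in capitals.
Cdkn2c piece at 100 bases: ctgcctacatctCACGTccatagtaatta
Cdkn2c piece at 123 bases: taaagcttaggtACGTGacagctctgcct
ACGTG occurred in 16.6% of all 32851 RefSeq windows of this length and the E2F letters in 1.86%. A match is a description of the sequence and not a shown binding site, and the absence of a match says only that these letters are not in the window.

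Levels of different genes were compared per length, as CPM per kilobase (kb) of exon. In R26 normoxia Cdkn2a had the highest level at 65.2 ± 3.22 CPM per kb (SD, n = 3), followed by Cdkn1b at 49.5 ± 4.77 and Cdkn1a at 34.7 ± 0.785 CPM per kb. Cdkn2b at 10.3 ± 0.676, Cdkn2d at 6.73 and Cdkn2c at 4.51 ± 0.136 CPM per kb came next, and Cdkn1c was last at 0.802 ± 0.153 CPM per kb. No neighbours in this order had overlapping library values. R26 hypoxia put Cdkn1b first, at 65.5 ± 6.61 CPM per kb, above Cdkn2a at 49.3 ± 3.4 CPM per kb. Cdkn2b (11.5 ± 1.45 CPM per kb) and Cdkn2d (11.9 CPM per kb) were not separated there beyond their spread. In HIF1a-ko hypoxia Cdkn2a (47.9 ± 2.91 CPM per kb) and Cdkn1b (43.7 ± 3.38 CPM per kb) had overlapping library values, and Cdkn2c, at 14.1 ± 0.561 CPM per kb, stood above Cdkn2b at 9.32 ± 0.289 CPM per kb.

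The 7 genes summed to 172 ± 7.4, 177 ± 10.3 and 157 ± 2.97 CPM per kb in R26 cells at 20% oxygen, R26 cells at 0.5% oxygen and HIF1a-ko cells. INK4 genes made up 50.5% ± 1.33 (SD, n = 3) of that sum in R26 normoxia, 44% ± 1.56 in R26 hypoxia and 56.4% ± 1.84 in HIF1a-ko hypoxia. Cdkn2a alone made up 38%, 27.8% and 30.5%, and Cdkn1b 28.8%, 36.9% and 27.8%. Because the counts of Cdkn2a also hold the p19Arf transcript, an unknown part of the INK4 share is not for an INK4 protein. Cdkn2c and Cdkn2d together moved from small shares of 2.63% and 3.92% in R26 normoxia to 8.96% and 11.1% in HIF1a-ko hypoxia. The shares depend on the length used: with the longest transcript in place of all exons, Cdkn1a took 27.2% and Cdkn1b 22.7% in R26 normoxia, which puts Cdkn1a above Cdkn1b. By that length Cdkn1b (57.9 to 69.5 CPM per kb) and Cdkn2a (59.7 to 68.5) overlapped in R26 hypoxia, and in HIF1a-ko hypoxia Cdkn2a (58.4 to 65.8) lay above Cdkn1b (40.1 to 46.8).

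**Figure D1:**
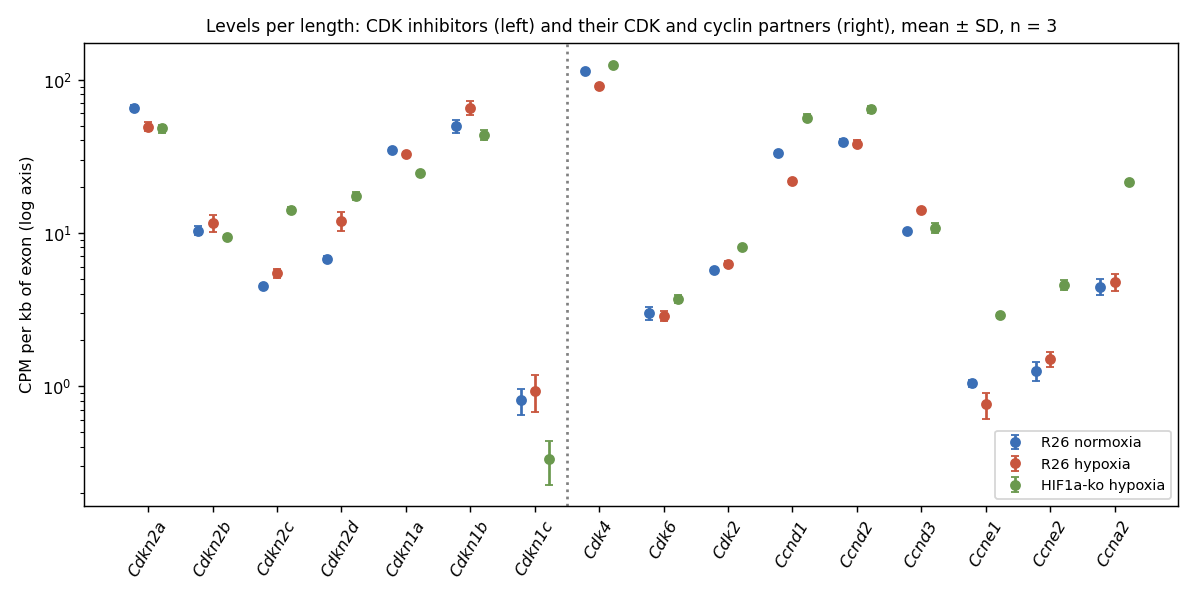
Level per length (CPM per kb of exon, log axis) of the 7 CDK inhibitors, left of the dotted line, and of 9 CDKs and cyclins they act on, right of it. Points are means and bars SD over 3 libraries of each group. Cdkn1c lies lowest of the inhibitors, at 0.332 to 0.928 CPM per kb, and Cdk4 highest of all genes drawn, at 90.1 to 125 CPM per kb.

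The kinases that these proteins bind were set beside them on the same scale. Cdk4 stood at 114 ± 1.42 CPM per kb in R26 normoxia, 90.1 ± 3.47 in R26 hypoxia and 125 ± 1.79 in HIF1a-ko hypoxia. Cdk6 was far lower, at 2.97, 2.86 and 3.68 CPM per kb. The cyclin partner Ccnd1 stood at 32.9, 21.6 and 56.3 CPM per kb, and Ccnd2 at 39.2, 38.2 and 64.1 CPM per kb. Each INK4 gene was thus below Cdk4 per length in every group, with p16Ink4a and p19Arf counted together in Cdkn2a.

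**Figure D2:**
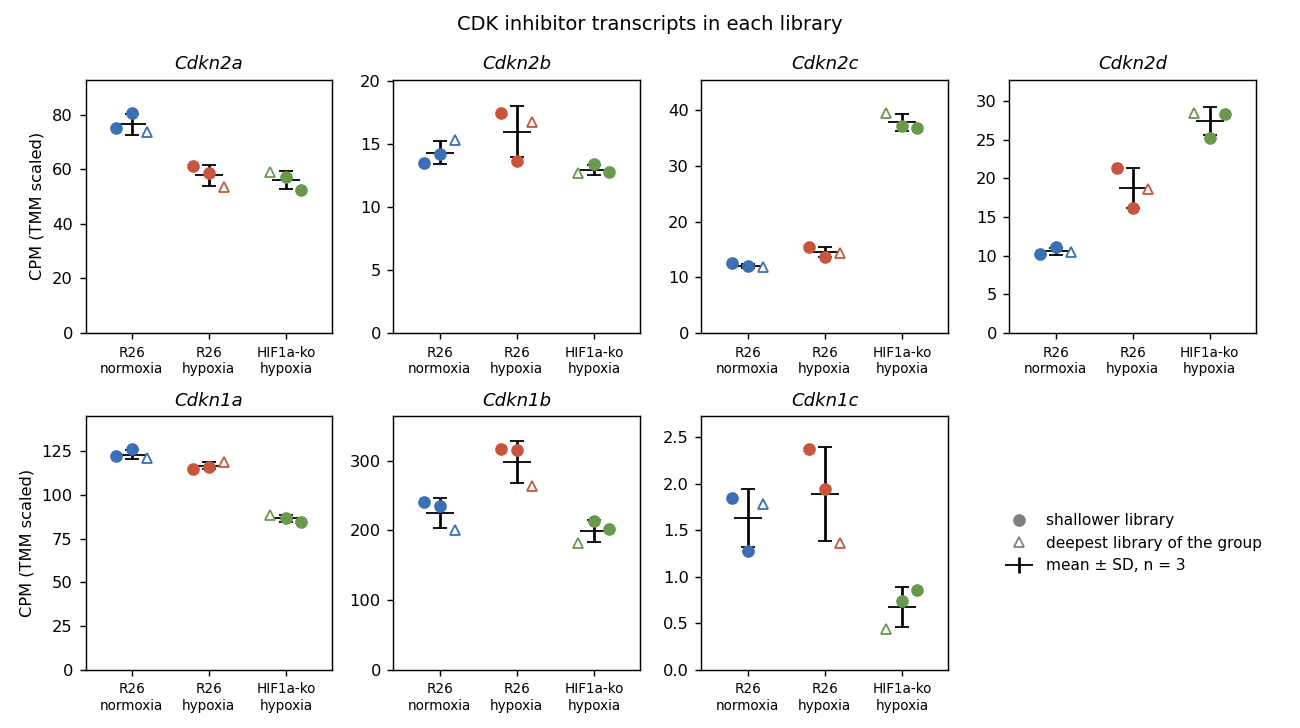
CPM (TMM scaled) of each CDK inhibitor in every library, INK4 genes in the upper row and CIP/KIP genes in the lower row. Circles are shallower libraries, open triangles the deepest library of a group, and bars show mean ± SD (n = 3). Cdkn2c is highest in all 3 HIF1a-ko libraries, at 36.7 to 39.5 CPM, and Cdkn1a lowest in them, at 84.5 to 88.6 CPM.

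The first comparison, R26 hypoxia against R26 normoxia, asks what low oxygen did to these transcripts in control cells. Cdkn2d, Cdkn1b and Cdkn2c rose and Cdkn2a fell, with the largest change a 1.77-fold rise of Cdkn2d. Cdkn1a, Cdkn1c and Cdkn2b did not pass the test. That makes 4 of 7 called at an adjusted p under 0.05, 3 higher and 1 lower, against 25.2% of the 18211 genes tested (12.8% higher, 12.4% lower). The median log2 fold change of the 7 was 0.20, beside -0.01 over all genes.

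Among the INK4 genes, Cdkn2d encodes p19Ink4d. Its values were 10.2, 11.1 and 10.5 CPM in R26 normoxia and 21.4, 16.2 and 18.7 CPM in R26 hypoxia. Every hypoxic library was above every normoxic one, and the hypoxic values were the more spread. The log2 fold change was 0.83 ± 0.10 (SE; edgeR quasi-likelihood test, adjusted p = 0.000445).

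Cdkn2c had 12.5, 12 and 11.8 CPM in R26 normoxia, and 15.5, 13.7 and 14.4 CPM in R26 hypoxia. The groups did not overlap, and the rise was small, with a log2 fold change of 0.26 ± 0.06 (edgeR adjusted p = 0.0143).

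Cdkn2a went the other way. Its values were 75.2, 80.7 and 73.5 CPM in R26 normoxia and 61.3, 58.5 and 53.4 CPM in R26 hypoxia. All 3 hypoxic libraries were below all 3 normoxic ones, and the fall was 1.32-fold, with a log2 fold change of -0.41 ± 0.07 (edgeR adjusted p = 0.00215).

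Cdkn2b, whose protein p15Ink4b is best known as a mediator of arrest by TGF-beta, did not pass. It had 13.5, 14.2 and 15.3 CPM in R26 normoxia and 17.5, 13.7 and 16.8 CPM in R26 hypoxia. The groups overlapped, and the log2 fold change was 0.16 with a 95% interval of -0.06 to 0.38 (edgeR adjusted p = 0.284). Thus the 2 neighbours on chromosome 4 differed in their call, but the difference between them was not tested.

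Among the CIP/KIP genes, Cdkn1b encodes p27Kip1, an inhibitor that accumulates in resting cells. Its values were 240, 235 and 200 CPM in R26 normoxia and 316, 315 and 264 CPM in R26 hypoxia. The deeper library was the lowest in each group, and the groups did not overlap. The rise was 1.32-fold, with a log2 fold change of 0.41 ± 0.10 (edgeR adjusted p = 0.0137). Without R26 hypoxia 2 it was 0.37 and did not pass (adjusted p = 0.0517). Across all 9 libraries Cdkn1b was lower in the deeper ones in 3 of 3 groups (215 against 254 CPM, log2 difference -0.23, edgeR adjusted p = 0.000324). The 3 deeper libraries are also those with Krt18 at 0 and Adipoq near 0, and the part of such transcripts in the difference was not tested. The other 6 inhibitors were not called by depth, where 27.4% of all genes were.

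Cdkn1a encodes p21Cip1, the p53-induced inhibitor. It had 122, 126 and 121 CPM in R26 normoxia and 115, 116 and 119 CPM in R26 hypoxia. The groups did not overlap, as was so for 38.4% of all genes, yet the difference was small and not called (log2 fold change -0.08, 95% interval -0.16 to 0.01, edgeR adjusted p = 0.171). Cdkn1c had 1.85, 1.28 and 1.78 CPM in R26 normoxia and 2.37, 1.95 and 1.36 CPM in R26 hypoxia. Its groups overlapped, and its interval of -0.46 to 0.86 on the log2 scale was the widest of the 7 (edgeR adjusted p = 0.695).

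In the 6 shallower libraries alone, 4 of the 7 inhibitors were called in this comparison, in a fit that called 5453 genes. Libraries with the same number in R26 normoxia and R26 hypoxia deviated together from their group means, as did shallower libraries with different numbers. A fit of these 2 groups with the replicate number as a block called 7259 genes, where the fit of the same 2 groups without it called 3964. Each called 4 of the inhibitors.

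The genes that the inhibitors act on, or that act on them, were read in the same comparison. Of 20 CDKs, cyclins and their activators, 3 were higher and 4 lower (median log2 fold change 0.02). Ccnd1, the cyclin that brings growth signals to Cdk4, fell 1.52-fold, from 155 ± 5.19 to 102 ± 4.46 CPM (edgeR adjusted p = 8.32e-05). Cdk4 fell from 369 ± 4.6 to 293 ± 11.3 CPM (log2 fold change -0.33, adjusted p = 0.000564). Ccnd3 rose 1.37-fold (adjusted p = 0.000345). Cdk2 and Cdk6 were not called, with log2 fold changes of 0.12 and -0.05. With the replicate block Cdk2 was called (adjusted p = 0.031), and without R26 normoxia 3 the value of Cdk6 was 0.04.

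Of 13 genes of the RB family and E2F, 2 were higher and 0 lower, E2f1 among the higher with a log2 fold change of 0.35 ± 0.05 (edgeR adjusted p = 0.000644). In a list of 25 S phase and proliferation genes, 1 was higher and 12 lower, with a median log2 fold change of -0.23. Mcm5, part of the replicative helicase, fell 1.88-fold (adjusted p = 7.34e-05), and Pcna, the sliding clamp of DNA polymerase, fell 1.5-fold (adjusted p = 0.00461). Mki67, the gene of the proliferation antigen Ki-67, was the higher gene, at a log2 fold change of 0.43 (adjusted p = 0.0169). That call was lost without R26 normoxia 1 (0.42, adjusted p = 0.0592) or R26 normoxia 2 (0.35, adjusted p = 0.0629).

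Upstream of Cdkn1a, 2 of 11 genes for p53 and its regulators were higher and 2 lower. Trp53 fell from 130 ± 7.3 to 99.7 ± 10.3 CPM (log2 fold change -0.38, edgeR adjusted p = 0.0132). Without R26 normoxia 3 or R26 hypoxia 2 its value was -0.32 or -0.34 and was not called (adjusted p = 0.0502 and 0.0529). Mdm2, the ligase that removes p53, was at 186 and 188 CPM. Of 23 other p53 targets, 2 were higher and 7 lower (median -0.16), among them Ddit4, an inhibitor of mTOR signalling that is also a HIF-1 target (log2 fold change 1.51 ± 0.12, adjusted p = 3.58e-05), and Trp53inp1 (-0.53 ± 0.10, adjusted p = 0.00435).

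Of 15 genes for the breakdown of p27, p21 and p57, 1 was higher and 4 lower. Skp2, which marks p27 for destruction, had a log2 fold change of -0.27 (edgeR adjusted p = 0.0274). The Skp2 call was lost without R26 normoxia 1 (-0.27, adjusted p = 0.0779), R26 normoxia 3 (-0.22, 0.0969), R26 hypoxia 1 (-0.26, 0.0718), R26 hypoxia 2 (-0.21, 0.0879) or HIF1a-ko hypoxia 3 (-0.26, 0.0524). It was also lost with no filter on low counts (0.0852) and with the 2 compared groups only (0.0616), in 7 of 17 alternatives in all. Of 15 FOXO, MYC and MAX group genes, which include transcriptional activators and repressors of Cdkn1b and Cdkn1a, 3 were higher and 3 lower. Mxi1, a MYC antagonist, rose by 1.12 on the log2 scale (adjusted p = 8.82e-06) and Foxo4 1.45-fold (adjusted p = 0.0023), while Foxo3 was not called (0.10, adjusted p = 0.143), though the replicate block put it past the threshold (0.0255).

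Of 25 Polycomb and other regulators of the Cdkn2a locus, 8 were higher and 3 lower (median 0.13). Kdm6b, a demethylase that removes the Polycomb mark, rose 1.57-fold (edgeR adjusted p = 0.000665), and Ets2, an activator of Cdkn2a, fell 1.5-fold (adjusted p = 0.000272). Bmi1 and Ezh2, the core Polycomb repressors of this locus, were not called, with means of 99.2 and 99.5 CPM for Bmi1 and of 28.8 and 28 CPM for Ezh2 in R26 hypoxia and R26 normoxia. Of 20 senescence-associated genes, 7 were higher and 6 lower, with Mmp3, a secreted matrix protease, at a log2 fold change of -1.22 ± 0.10 (adjusted p = 3.73e-05). Of 6 tested chromosome 4 neighbours of Cdkn2a and Cdkn2b, 2 were higher and 1 lower, the lower being Mtap (log2 fold change -0.27, adjusted p = 0.00364), which encodes an enzyme of methionine salvage. Of 11 tested chromosome 7 neighbours of Cdkn1c, 0 were higher and 4 lower.

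The second comparison, HIF1a-ko hypoxia against R26 hypoxia, asks how the population with the Hif1a guide differed from that with the control guide in low oxygen. It shares the R26 hypoxia libraries with the first, so the values of the 2 comparisons are not independent. Cdkn2c rose 2.6-fold and Cdkn2d 1.46-fold, while Cdkn1c, Cdkn1b, Cdkn1a and Cdkn2b fell by 2.81, 1.5, 1.35 and 1.24 times. All 3 CIP/KIP genes were lower, and of the 4 INK4 genes 2 were higher, 1 lower and 1 not called. With 6 of 7 called, the background was 45.8% of 18211 genes (22% higher, 23.8% lower). The groups did not overlap for 6 of 7, beside 54.6% of all genes. The median log2 fold change of the 7 was -0.31, beside -0.02 over all genes.

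Cdkn2c stood at 39.5, 37.2 and 36.7 CPM in HIF1a-ko hypoxia, against 13.7 to 15.5 CPM in R26 hypoxia. The lowest HIF1a-ko library was far above the highest R26 library, and all 3 HIF1a-ko values lay close together. The log2 fold change was 1.38 ± 0.06 (edgeR adjusted p = 2.8e-07). Cdkn2c is the gene with the ACGTG pieces printed above, letters that 16.6% of all windows held. Whether these pieces have a part in its values was not tested.

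Cdkn2d stood at 28.5, 25.3 and 28.4 CPM in HIF1a-ko hypoxia, above all 3 R26 hypoxia libraries (16.2 to 21.4 CPM). The log2 fold change was 0.55 ± 0.10 (edgeR adjusted p = 0.00148). This transcript was thus higher in low oxygen than in normoxia with the control guide, and higher again with the Hif1a guide.

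Cdkn2a was at 58.9, 57.1 and 52.3 CPM in HIF1a-ko hypoxia and 53.4 to 61.3 CPM in R26 hypoxia. These values overlapped throughout, and the log2 fold change of -0.04 had an interval of -0.19 to 0.11 (edgeR adjusted p = 0.675). A difference beyond that interval was not seen, and its sign changed with the setting, at 0.02 to 0.03 with library totals as the only scaling or without HIF1a-ko hypoxia 3, and at 0.005 without R26 hypoxia 1.

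Cdkn2b was at 12.7, 13.4 and 12.8 CPM in HIF1a-ko hypoxia. These lay below the R26 hypoxia libraries (13.7 to 17.5 CPM) by a narrow margin (log2 fold change -0.31 ± 0.10, edgeR adjusted p = 0.0265). The call was lost in 8 of 17 alternative analyses. Without R26 hypoxia 1 the value was -0.24 (adjusted p = 0.1), without R26 hypoxia 3 -0.27 (0.0741), without HIF1a-ko hypoxia 1 -0.28 (0.0811) and without HIF1a-ko hypoxia 3 -0.28 (0.088). In the 6 shallower libraries it was -0.25 (adjusted p = 0.0717), which left 5 of 7 inhibitors called there, in a fit that called 9322 genes.

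Cdkn1a was at 88.6, 87 and 84.5 CPM in HIF1a-ko hypoxia, below all R26 hypoxia libraries (115 to 119 CPM). The spread within each group was small, and the log2 fold change was -0.43 ± 0.04 (edgeR adjusted p = 1.53e-05). Cdkn1b was at 182, 213 and 202 CPM in HIF1a-ko hypoxia, against 264 to 316 CPM in R26 hypoxia. The lowest value of each group was that of the deeper library, and the log2 fold change was -0.58 ± 0.10 (edgeR adjusted p = 0.000842).

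Cdkn1c was at 0.437, 0.738 and 0.855 CPM in HIF1a-ko hypoxia and 1.36 to 2.37 CPM in R26 hypoxia. It had the largest fall of the 7, with a log2 fold change of -1.49 ± 0.30 (edgeR adjusted p = 0.00292). It also had the fewest reads, and its interval ran from -2.18 to -0.81. Cdkn1c is an imprinted gene, expressed from the maternal copy. Of the 11 chromosome 7 neighbours tested, a list of imprinted and other genes, 2 were higher and 0 lower. These were Cars with a log2 fold change of 1.74 ± 0.06 (adjusted p = 6.43e-08) and Nap1l4 with 0.36 ± 0.09 (adjusted p = 0.00869). Whether imprinting has a part in these values was not tested.

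**Figure D3:**
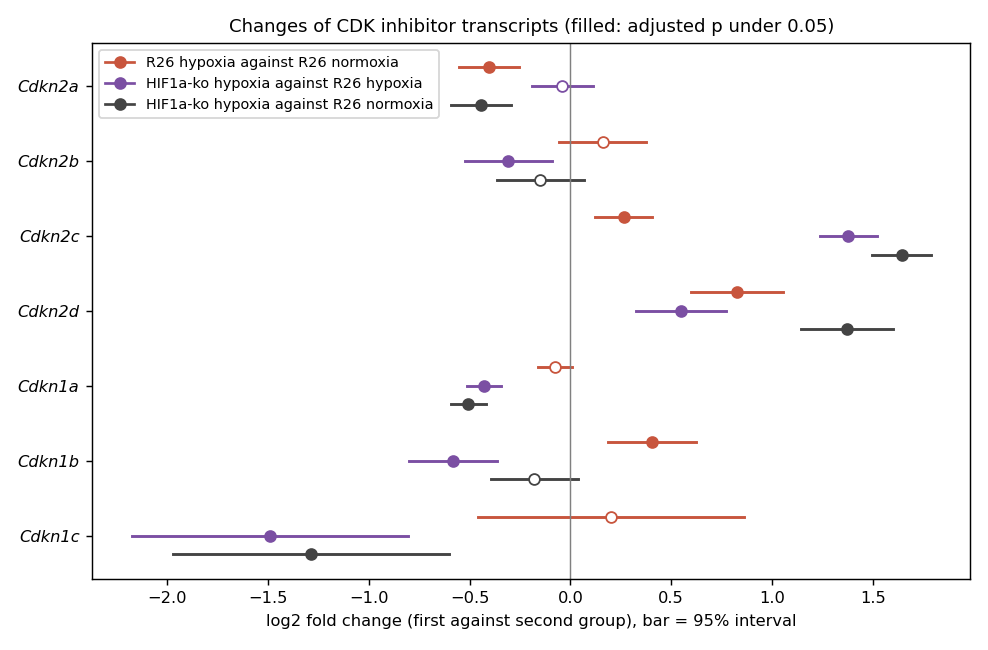
Log2 fold change of each inhibitor in the 3 comparisons, with the 95% interval of the edgeR fit as a bar and filled points for an adjusted p under 0.05. Cdkn2c and Cdkn2d lie right of 0 in each comparison, and Cdkn2a is called in both comparisons against R26 normoxia (-0.41 and -0.45) but not against R26 hypoxia (-0.04).

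Around the inhibitors, the proliferation genes were higher with the Hif1a guide. Of the 20 CDKs, cyclins and activators, 17 were higher and 2 lower, with a median log2 fold change of 0.74. Ccnb1 and Ccna2, cyclins of mitosis and S phase, rose 4.51-fold and 4.47-fold (edgeR adjusted p = 1.53e-07 and 4.55e-07). Ccnd1 rose 2.61-fold, to 265 ± 14.5 CPM (adjusted p = 1.54e-07). Cdk4, Cdk6 and Cdk2 rose 1.39-fold, 1.29-fold and 1.29-fold (adjusted p = 1.71e-05, 0.00542 and 0.000283). The 2 lower genes were Ccnd3 (log2 fold change -0.39, adjusted p = 0.000246) and Cdk7, the CDK-activating kinase (-0.39, adjusted p = 0.000213).

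Of the 13 RB family and E2F genes, 8 were higher and 2 lower (median 0.48). E2f8 rose 7.08-fold (edgeR adjusted p = 3.58e-07) and Rbl1, for p107, 3.9-fold (adjusted p = 7.74e-07), while Rbl2, for p130, the form typical of resting cells, fell 1.3-fold (adjusted p = 0.00489). In the S phase list 25 of 25 were higher and 0 lower (median 1.89). Cdc6, which loads the replicative helicase, rose 7.03-fold (adjusted p = 2.53e-07), Mcm5 6.58-fold (adjusted p = 5.47e-08) and Mki67 3.65-fold (adjusted p = 1.12e-06). The rise of Cdkn2c and Cdkn2d here was thus measured in libraries in which S phase genes were also higher. In R26 hypoxia against R26 normoxia both inhibitors also rose, while 1 gene of the S phase list was higher and 12 were lower. A link between these values was not tested.

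Of the 11 genes for p53 and its regulators, 5 were higher and 2 lower. Chek1, a checkpoint kinase, rose 3.76-fold (edgeR adjusted p = 3.79e-06) and Mdm2 1.26-fold (adjusted p = 0.000128), and Mdm4, an inhibitor of p53, fell 1.25-fold (adjusted p = 0.00393). Trp53 was not called (log2 fold change 0.17, adjusted p = 0.169). It was called with depth as a term (0.00348), in the shallower libraries (0.00964) and without R26 hypoxia 3 (0.25, 0.0333). Of 23 other p53 targets 13 were higher and 4 lower (median 0.61), whereas Cdkn1a was lower. Gdf15, a stress cytokine, rose 2.33-fold (adjusted p = 6.62e-05), Sesn2 rose 2.05-fold (adjusted p = 1.6e-06) and Ddit4 fell 2.02-fold (adjusted p = 7.72e-05).

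Of the 15 genes for breakdown of p27, p21 and p57, 8 were higher and 3 lower. Dtl, which targets p21 in S phase, rose 3.58-fold (edgeR adjusted p = 8.73e-07), Cdc20 3.39-fold (adjusted p = 1.36e-07) and Skp2 1.69-fold (adjusted p = 2.84e-05). Ddb1, a subunit of the same ligase as Dtl, fell by 0.22 on the log2 scale (adjusted p = 0.00404), and not past the threshold without the filter on low counts (0.0747). These are transcript values, and the amount of p27, p21 or p57 protein was not measured in these files.

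Of the 15 FOXO, MYC and MAX group genes, 4 were higher and 9 lower (median -0.29). Foxo3, an activator of Cdkn1b, fell 1.44-fold, from 193 ± 4.42 to 134 ± 5.24 CPM (edgeR adjusted p = 9.65e-06). Mxi1 fell 2.94-fold (adjusted p = 2.66e-07) and Mxd3, another MAX partner, rose 4.46-fold (adjusted p = 1.58e-07). Of 25 regulators of the Cdkn2a locus, 6 were higher and 9 lower (median -0.04). Ezh2 and Suz12, subunits of the Polycomb complex that writes the repressive mark, rose 2.05-fold (adjusted p = 3.45e-06) and 1.59-fold (adjusted p = 0.000213). Kdm6b, which removes that mark, and Cbx7, which reads it, both fell 1.94-fold (adjusted p = 1.76e-05 and 1.86e-05).

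Bmi1 was just past the threshold, with a log2 fold change of 0.18 (edgeR adjusted p = 0.0474). The Bmi1 call was lost without R26 normoxia 1 (0.17, adjusted p = 0.0713), R26 hypoxia 1 (0.17, 0.116), R26 hypoxia 2 (0.14, 0.158), HIF1a-ko hypoxia 1 (0.18, 0.0937) or HIF1a-ko hypoxia 3 (0.16, 0.121). It was also lost with upper-quartile factors (0.0518) and with no filter on low counts (0.0645), in 7 of 17 alternatives in all. Of 20 senescence-associated genes 4 were higher and 8 lower. Lmnb1, a lamin that is lost in senescent cells, rose 2.52-fold (adjusted p = 1.15e-07), and Igfbp4, a secreted binding protein of growth factors, fell 3.13-fold (adjusted p = 1.66e-07). Of 6 chromosome 4 neighbours 1 was higher, Mtap (1.35-fold, adjusted p = 6.69e-05), and 1 lower.

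**Figure D4:**
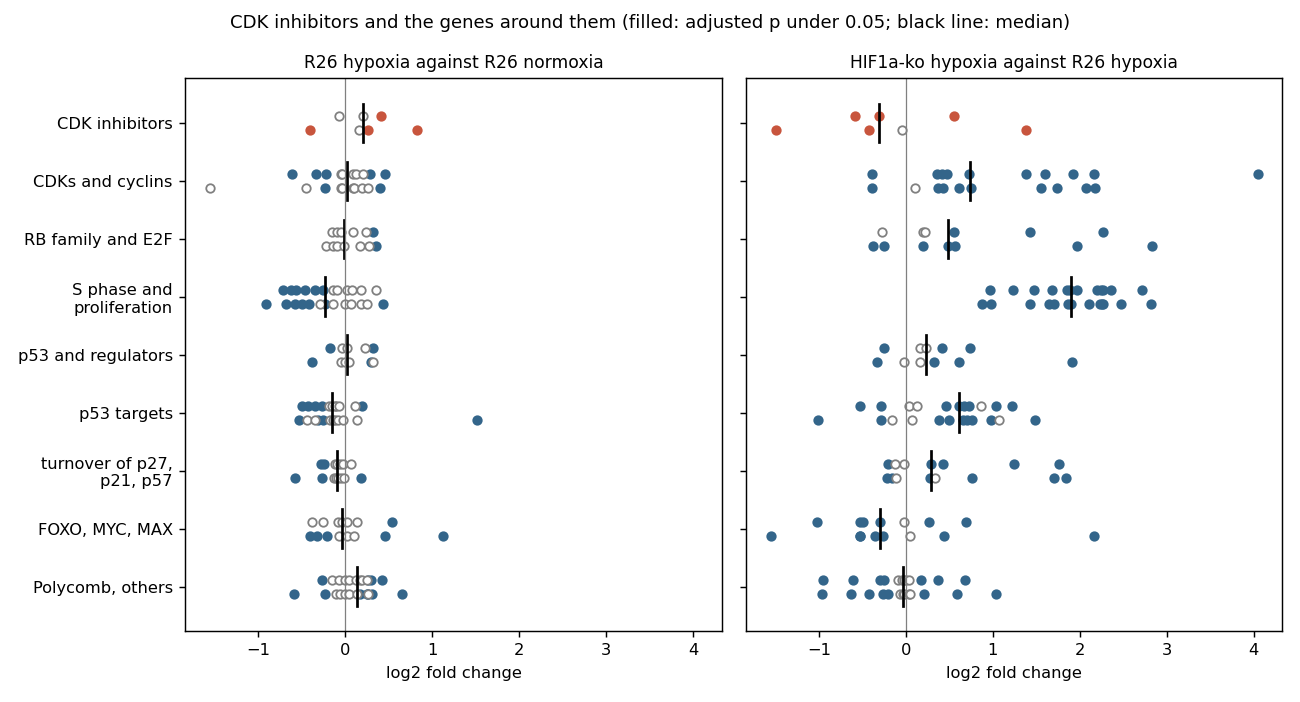
Log2 fold change of the 7 inhibitors and of the genes of 8 lists around them in the first comparison (left) and the second (right). Each point is a gene, filled where the adjusted p is under 0.05, and black lines are medians. In the second comparison the S phase list lies right of 0 for 25 of 25 genes, while the inhibitors lie on both sides (median -0.31). The panels share the R26 hypoxia libraries.

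The third comparison, HIF1a-ko hypoxia against R26 normoxia, differs in both the guide and the oxygen. It shares libraries with each of the others, and its values are given side by side with theirs. Cdkn2c and Cdkn2d were 3.12-fold and 2.59-fold higher, and Cdkn1c, Cdkn1a and Cdkn2a were 2.44, 1.42 and 1.36 times lower. That is 5 of 7 called, against 41.4% of 18211 genes (19.5% higher, 21.9% lower). The median log2 fold change of the 7 was -0.18, beside -0.01 over all genes.

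Cdkn2c had log2 fold changes of 0.26, 1.38 and 1.64 ± 0.06 in the 3 comparisons in order (edgeR adjusted p = 2.47e-07 in the third). Cdkn2d had 0.83, 0.55 and 1.37 ± 0.10 (adjusted p = 6.46e-06). Cdkn2a had -0.41, -0.04 and -0.45 ± 0.07 (adjusted p = 0.000561), so its level in HIF1a-ko hypoxia stood below that in normoxia by about as much as in R26 hypoxia. Cdkn1a had -0.08, -0.43 and -0.51 ± 0.04 (adjusted p = 6.74e-06). Cdkn1c had 0.20, -1.49 and -1.29 ± 0.30 (adjusted p = 0.00741).

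Cdkn1b and Cdkn2b were not called in the third comparison. Cdkn1b had a log2 fold change of -0.18 with an interval of -0.40 to 0.04 (edgeR adjusted p = 0.174), after 0.41 and -0.58 in the others, and its groups overlapped. It was called with depth as a term (-0.18, adjusted p = 0.00192) and in the 6 shallower libraries (-0.18, adjusted p = 0.00838). That fit of the 6 shallower libraries called 6 of 7 inhibitors and 8377 genes. Cdkn2b had -0.15 (adjusted p = 0.261), though its 2 groups did not overlap, which held for 53.2% of all genes.

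In the same comparison the S phase list was higher in 25 of 25 genes (median 1.64), and Mki67 rose 4.93-fold (edgeR adjusted p = 5.4e-07). Of the 20 CDKs, cyclins and activators 17 were higher and 1 lower, with Ccnd1 1.71-fold (adjusted p = 4.77e-06) and Cdk2 1.4-fold higher (adjusted p = 5.69e-05). Cdk4 and Cdk6 rose by less, with log2 fold changes of 0.14 (adjusted p = 0.0234) and 0.31 (adjusted p = 0.014). Without R26 normoxia 1 these were 0.14 (0.0794) and 0.27 (0.0567), and without R26 normoxia 2 they were 0.14 (0.0748) and 0.27 (0.0548), neither called.

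Of the 13 RB family and E2F genes 9 were higher and 0 lower, of 11 p53 regulators 5 and 1, and of 23 other p53 targets 11 and 3. Mdm2 and Skp2 rose 1.27-fold (edgeR adjusted p = 0.000119) and 1.41-fold (adjusted p = 0.000548). Trp53 was not called (log2 fold change -0.22, adjusted p = 0.0855), but passed with depth as a term (0.000549), in the 6 shallower libraries (-0.23, 0.00172), without R26 hypoxia 3 (-0.22, 0.0375) and without HIF1a-ko hypoxia 1 (-0.28, 0.0332). Of 15 genes of inhibitor breakdown 6 were higher and 3 lower, and of 15 FOXO, MYC and MAX genes 5 and 8, among them Foxo3, which fell 1.34-fold (adjusted p = 4.41e-05). Of 25 regulators of the Cdkn2a locus 7 were higher and 8 lower, with Ezh2 2.11-fold higher (adjusted p = 3.67e-06). Bmi1 was at 0.17 (adjusted p = 0.0567), called without R26 normoxia 3 (0.24, 0.0272), R26 hypoxia 3 (0.17, 0.0413) or HIF1a-ko hypoxia 2 (0.21, 0.0425). It was called in 9 of 17 alternatives in all, among them depth as a term (0.0108), the 6 shallower libraries (0.00928) and DESeq2 (0.0347). Of 6 chromosome 4 neighbours 4 were higher and 0 lower, and of 20 senescence-associated genes 5 were higher and 8 lower.

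The genes with the most similar profile to each inhibitor were found over the 9 libraries among 9672 genes, by the root mean square (RMS) difference of log2 CPM after centring each gene on its mean. For Cdkn2c the nearest was Pold1 (RMS difference 0.07, where Cdkn2c itself varied by 0.72), then Serpinb8 and Gpt2. For Cdkn2d they were Fgd3 (0.11, own variation 0.57), Aass and Slc6a9, for Cdkn2a Tmco4 (0.05, own 0.21), Rnaset2b and Plekho2, and for Cdkn2b Osbpl10 (0.05, own 0.16), Tspan31 and Gab1. Cdkn1a was nearest to Magee1 (0.03, own 0.22), Marc2 and Sec22a, and Cdkn1b to Hspa12b (0.06, own 0.27), Mr1 and Ehbp1. Cdkn1c, with the fewest reads, had no close match, the nearest being Rtl5 (0.29, own 0.72), H2-T23 and Ifi47. These genes are named for likeness of values only.

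**Figure D5:**
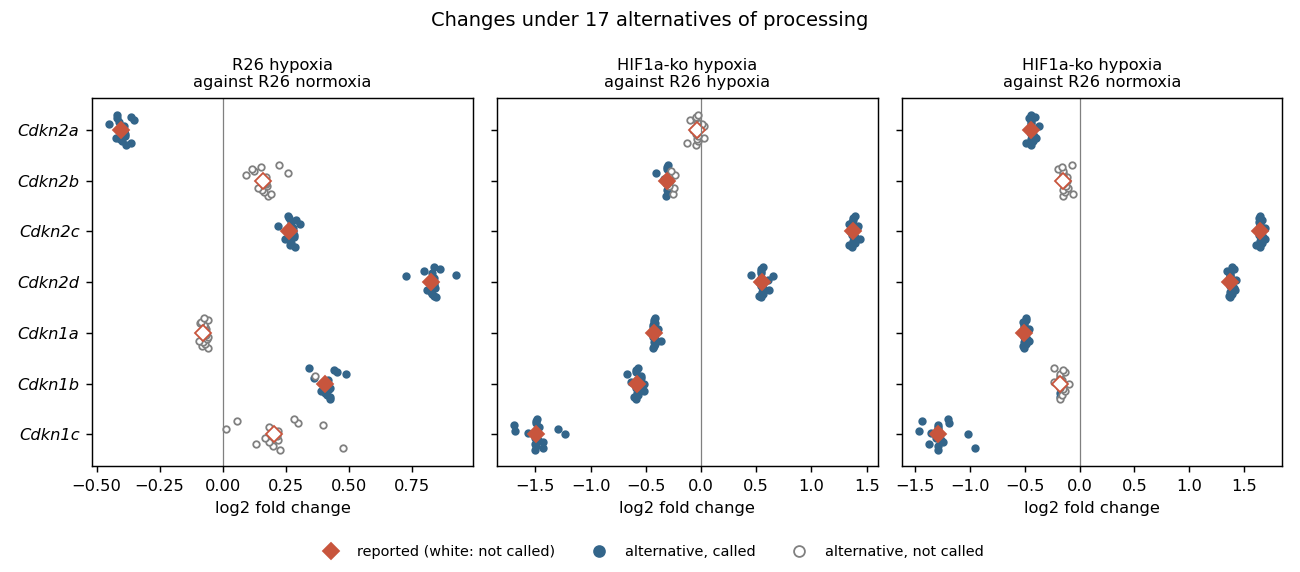
Log2 fold change of each inhibitor (axis in log2 units) as reported, by diamonds, and under 17 alternatives of processing, by circles, in the 3 comparisons. Filled symbols have an adjusted p under 0.05. The 17 values of Cdkn2c stay between 0.22 and 0.31 in the first comparison, and those of Cdkn2a in the second lie on both sides of 0.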

How the data were processed

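The authors deposited raw read counts for each Ensembl gene in 9 libraries, with no normalization. The tools listed per the submitters' processing notes are STAR, featureCounts, Trimmomatic, bcl2fastq 2.17 and DESeq2, with the build GRCm38. Per the labels' protocols, libraries came from poly-A RNA. Aligner settings, annotation release, strand setting and the treatment of multiply matching reads were not given in the sources used here. GENCODE M21 gave a symbol for 49056 of 49315 identifiers and none for 259.

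Genes were tested with edgeR 4.0.16 (R 4.3.3) by the quasi-likelihood test (two-sided), with TMM scaling, filterByExpr (18211 genes left, all 7 inhibitors among them), a single fit over 9 libraries and the group as its term. P-values were adjusted by Benjamini-Hochberg over these genes and called under 0.05. The script was tested on simulated data. Levels per length use all exon bases of a gene. Alternatives were other scaling, no filter, depth as a term, the 6 shallower libraries, each library left out, the 2 compared groups only, those 2 groups with a replicate block, and DESeq2 1.42.0. Depth classes were defined from the data.

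The members and gene lists were chosen with earlier results of these data known. Named genes are the 7 inhibitors, 11 genes given in every comparison, and up to 3 called genes each way per list. Krt18, Krt19, Adipoq and Ccnd2 were named after their values were seen. The values of 1 gene that the rule names are not reported here. In R26 normoxia and R26 hypoxia, deviations from the group means of same-numbered libraries correlated at 0.77, 0.77 and 0.94 over 9961 genes. The labels do not pair these samples, and the replicate block was fitted only as an alternative. The differently numbered shallower libraries correlated at 0.63 and 0.75. Same-numbered libraries here are also those of like depth, so pairing and depth cannot be told apart by these values. No 2 libraries of a group agreed within sampling noise (chi-square per degree of freedom 6.73 to 69.9).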

Additional observations from a re-analysis of the deposited data

How the results depend on the processing

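Of 357 values of the inhibitors under alternatives, 343 kept their direction and their side of the threshold, 9 lost the call, 2 gained it and 3 changed sign. The 3 were all of Cdkn2a in HIF1a-ko hypoxia against R26 hypoxia, at 0.025 with library totals only and with a library left out (-0.096 to 0.024), where R26 hypoxia 1 (0.005) and HIF1a-ko hypoxia 3 gave values above 0. The 9 lost calls were 8 of Cdkn2b in that comparison, with adjusted p = 0.0675 with library totals only, 0.0522 with no filter and 0.0903 with the replicate block beside those given above, and 1 of Cdkn1b. Of 1343 values of other named genes, 1281 kept both, 26 lost a call, 20 gained one and 16 changed sign. In R26 hypoxia against R26 normoxia Bmi1 was at 0.007 with upper-quartile factors, 0.012 with no filter, 0.005 in the 6 shallower libraries, 0.015 with 2 groups only, 0.016 with the replicate block, 0.001 with DESeq2 and at -0.053 to 0.048 with a library left out. Mdm2 was at -0.003 with library totals only and -0.01 to 0.041 with a library left out, Cdk6 at -0.115 to 0.044 and Ezh2 at -0.031 to 0.117. None of these was called. The cause was not tested.

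Genes called in R26 hypoxia against R26 normoxia numbered 6959 with depth as a term, against 4591. The block was fitted on the 2 groups compared, where it gave 7259 genes and the fit without it 3964. Leaving out a library gave 3287 to 4373 genes and 3 to 4 inhibitors in this comparison, 7195 to 8400 genes and 5 to 6 inhibitors in the second, and 6308 to 7995 genes and 5 inhibitors in HIF1a-ko hypoxia against R26 normoxia. In the latter comparisons same-numbered libraries deviated together only for number 2 (correlations -0.76, 0.74 and -0.70, and -0.81, 0.74 and -0.77). The libraries of number 2 are shallower in every group. The deeper HIF1a-ko hypoxia 1 correlated at 0.85 with R26 hypoxia 3 and at 0.9 with R26 normoxia 3, which are also deeper. On the 2 groups compared, the replicate block gave 6761 genes and 5 inhibitors in the second, against 7998 genes and 6 inhibitors without it. In the last it gave 6240 genes and 5 inhibitors, against 7671 and 5, and the calls of Cdk4 and Cdk6 held without the block and not with it (adjusted p = 0.0948 and 0.0522).

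With the longest transcript as length, the shares of the summed level in normoxia, in R26 hypoxia and with the Hif1a guide were 27.2%, 25.8% and 21.7% for Cdkn1a, 22.7%, 30.1% and 22.7% for Cdkn1b, 39.2%, 29.6% and 32.6% for Cdkn2a, 4.75%, 5.3% and 4.85% for Cdkn2b and 2.25%, 2.71% and 7.95% for Cdkn2c, and 3.42% in R26 normoxia and 10% in HIF1a-ko hypoxia for Cdkn2d. Depth limits Cdkn1c most, at 39 to 158 reads per library.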
